A study of Mus musculus with 3 samples.

Results

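Nr4a1, Nr4a2, Nr4a3, Egr1, Egr2, Egr3 and Irf4 encode transcription factors that T cells switch on when the T cell receptor (TCR) is engaged. These 7 genes, of 18029 in the count table, were listed by name, with earlier results of these data known, and they were followed in donor CD4+ and CD8+ T cells 7 days after allogeneic bone marrow transplantation (BMT). All 7 passed the filter on low counts in both lineages. Under cyclosporin A (CSA) at 50 mg/kg, Nr4a2, Nr4a3, Egr2 and Irf4 fell in CD4+ and in CD8+ T cells, whereas Nr4a1 rose in both. Under 5 mg/kg, Irf4 had already fallen in both lineages, while Nr4a2 and Egr2 did not pass the test in either.

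Engagement of the TCR activates calcineurin, a calcium-dependent phosphatase that lets NFAT transcription factors enter the nucleus, and in parallel the ERK kinase cascade and NF-κB. CSA binds cyclophilin A, and the complex inhibits calcineurin. The Nr4a genes encode orphan nuclear receptors, of which Nr4a1 (Nur77) is widely used as a reporter of TCR signaling and all family members have been tied to T cell dysfunction. The Egr genes encode zinc finger factors: Egr1 is an immediate-early gene downstream of ERK, and Egr2 and Egr3 are linked to NFAT and to the restraint of activation seen in anergy. Irf4 is induced in proportion to TCR signal strength and is needed for effector expansion.

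Irradiated B6D2F1 mice had received B6 bone marrow, B6 T cells and a small number of TEa T cells, which carry a single transgenic TCR specific for a recipient alloantigen. Treatment ran daily from day 0 to day 6, with saline in 1 group and CSA in the other two (5 or 50 mg/kg), and spleens were taken on day 7. Spleens of 2 mice were combined into 1 pool marked with a hashtag antibody, giving 3 pools from 6 mice in each group and 9 pools in all, and the sorted CD4+ and CD8+ donor populations of each treatment went together into 1 droplet capture with 5′ chemistry. Each treatment was therefore 1 capture, and the effects of capture and treatment cannot be told apart. All groups shared the irradiation, the donor and recipient strains and the TEa cells, there was no group without transplantation, and the ages of the mice were not given in the sources used here. The replicate was the pool of 2 mice.

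The tables held 21204 cells, of which 10371 were CD4+ (280 of them TEa cells, left out unless stated) and 10833 were CD8+, and 218 cell barcodes occurred in more than 1 capture. Summed unique molecular identifiers (UMIs) per pool ranged from 3994968 to 7592334 in CD4+ T cells and from 4392100 to 11454636 in CD8+ T cells. The median depth per cell rose with the dose, from 3097 to 5979.5 UMIs in CD4+ and from 4108 to 7183 UMIs in CD8+ T cells. In 1.53% to 10.7% of the cells of a lineage and group, the highest hashtag was not that of the assigned pool. The pools differed in this. In CD8+ T cells at 5 mg/kg it was 0 of 692 cells in replicate 1 and 46 of 856 in replicate 2. Replicate 3 had 240 of 1114 such cells, the most of any pool. Cd4 had no UMI in CD8+ and Cd8a had none in CD4+ T cells. Selecting cells on these 2 genes would give such counts by itself, so they are no check of the labels. Cd8b1 averaged 123 CPM (UMI counts scaled to a common total) in the CD4+ sums of saline pools and 26.2 CPM at 50 mg/kg. Summed erythroid markers rose with CSA at 50 mg/kg, from 3.21 to 14.8 CPM in saline pools to between 27.7 and 37.0 CPM in CD4+ sums, and from 4.15 to 17.9 CPM to between 24.6 and 48.7 CPM in CD8+ sums. At most 2 of the 6 erythroid markers were at 0 in a pool. The part of such RNA in the results below was not tested, and a member's fall in a sum over cells cannot be told apart from a lower share of the cells that express it.

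The stretches upstream of listed transcription starts are shown for the Nr4a genes and Egr2 because these genes moved most, and in opposite directions. They were taken from RefSeq on GRCm38.p6, the mm10 build the submitters' processing notes name, where starts were listed for 5 of the 7 members (5 starts for Egr2, 1 each for Nr4a1, Nr4a2, Nr4a3 and Irf4). Capitals mark TGACG, the core of the cyclic AMP response element, on either strand (CGTCA when read from the other strand). The Nr4a1 stretch is chr15:101266596-101266845 on the plus strand, inside the annotated gene (chr15:101254269-101274795) but in none of its exons, and the Nr4a2 stretch is chr2:57124004-57124253 on the minus strand, directly before the gene (chr2:57106830-57124003). The Nr4a3 stretch is the part before the first annotated exon, chr4:48045055-48045152 on the plus strand (gene chr4:48045153-48086447), and the Egr2 stretch, before 1 of its 5 listed starts, is chr10:67537619-67537868 on the plus strand, inside the annotated gene (chr10:67535475-67542188) and in no exon.
Nr4a1: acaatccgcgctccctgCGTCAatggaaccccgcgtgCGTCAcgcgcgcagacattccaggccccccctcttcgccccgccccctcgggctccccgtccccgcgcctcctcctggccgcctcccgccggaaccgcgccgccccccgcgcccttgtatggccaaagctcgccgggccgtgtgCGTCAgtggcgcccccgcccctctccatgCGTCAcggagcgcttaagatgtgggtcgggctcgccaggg
Nr4a2: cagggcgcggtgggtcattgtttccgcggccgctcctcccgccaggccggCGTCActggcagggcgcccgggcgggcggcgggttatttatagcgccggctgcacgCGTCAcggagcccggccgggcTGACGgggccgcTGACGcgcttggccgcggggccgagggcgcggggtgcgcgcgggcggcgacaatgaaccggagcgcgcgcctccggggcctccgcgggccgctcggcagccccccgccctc
Nr4a3: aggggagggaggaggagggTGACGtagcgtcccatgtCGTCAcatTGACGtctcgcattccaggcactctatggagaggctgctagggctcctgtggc
Egr2: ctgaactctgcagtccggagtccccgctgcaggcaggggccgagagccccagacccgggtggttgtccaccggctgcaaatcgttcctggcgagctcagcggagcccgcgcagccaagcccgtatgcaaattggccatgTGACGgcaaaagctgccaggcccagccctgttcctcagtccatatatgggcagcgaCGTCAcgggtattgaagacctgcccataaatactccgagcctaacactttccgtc
The 250 bases before the listed starts held 4 TGACG matches in each of Nr4a1, Nr4a2 and Nr4a3 (3 of the 4 lie in the Nr4a3 stretch shown), 2 in the Egr2 stretch and none for Irf4. The Egr2 stretch was picked among its starts because it held TGACG, so its count is not a finding. The Egr2 windows chr10:67535249-67535498 and chr10:67537316-67537565 held 0 matches, and the latter lies in no exon. Among 32851 promoters of 250 bases, 17.8% held at least 1 match and 0.137% held 4 or more, a limit set after these sequences had been seen. Nr4a1, which rose, and Nr4a2 and Nr4a3, which fell, thus did not differ in this count. The other motifs searched on both strands were the NFAT core GGAAA (in 55.6% of promoters; none in the Nr4a1 and Nr4a3 windows, 1 in that of Nr4a2, 1 in the Egr2 stretch shown and up to 3 before the other Egr2 starts), TGACGTCA (1.55%; none in these 4 windows), the AP-1 site TGANTCA (6.75%; none), the EGR site GCGNGGGCG (4.7%; 1 each for Nr4a1 and Nr4a2) and the NBRE AAAGGTCA, which NR4A proteins bind (1.34%; none). A MEF2 site (2.92% of promoters) lay before Nr4a2, and a CArG box (1.47%), the core of the serum response element, lay 62 to 72 bases before the Egr2 start. GGAAA can lie within longer sites and TGACG lies within TGACGTCA, and a match is a description of letters only.

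To compare these genes between the CSA and saline groups, UMIs were summed per pool. The sums were compared with edgeR's quasi-likelihood test, with adjustment over all genes of a lineage (Benjamini-Hochberg, threshold 0.05). Levels are CPM after TMM scaling, and changes are log2 differences with their standard errors (SE). At 50 mg/kg, 6 of the 7 members passed in CD4+ T cells, 1 higher and 5 lower, where 70.5% of the 10568 genes tested passed, 34.7% higher and 35.8% lower. In CD8+ T cells 6 members passed, 2 higher and 4 lower, where 74% of 10841 genes passed, 37.1% higher and 36.9% lower. With library size alone as the scaling, the split of all genes was 1599 higher and 6239 lower in CD4+ (3669 and 3785 with TMM) and 1690 higher and 6794 lower in CD8+ T cells (4021 and 4003 with TMM), because the median change of all genes then moved to -0.45 and -0.53. The share of members that passed is thus near that of all genes, and what follows concerns their directions and sizes. The pools of both groups did not overlap for 6 of 7 members in CD4+ T cells (72.7% of all genes) and for 5 of 7 in CD8+ T cells (75.8%).

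Nr4a1 rose with CSA. The saline CD4+ pools stood at 33.3, 34.9 and 34.0 CPM and the CD4+ pools at 50 mg/kg at 95.9, 93.5 and 106 CPM. The groups lay far apart, with a log2 change of 1.53 (SE 0.08, adjusted p = 2e-13 by edgeR), or 2.89-fold. Saline CD8+ pools had 17.8, 13.2 and 12 CPM and the pools at 50 mg/kg had 62.3, 60.7 and 32.8 CPM. The third treated pool thus sat well below the other two but still above every saline pool, and the change was 1.85 (SE 0.21, adjusted p = 3.5e-07, 3.61-fold). Among all genes, the Nr4a1 changes lay at the 98.6th percentile in CD4+ and the 98.7th in CD8+ T cells. The rise stayed past the threshold under all 20 alternatives run, with a log2 change of 1.09 to 1.63 in CD4+ and 1.32 to 2.12 in CD8+ T cells.

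Nr4a2 showed the largest fall of the members. Its saline CD8+ pools had 41.7, 46.2 and 35.7 CPM and the pools at 50 mg/kg 6.66, 5.44 and 8.07 CPM. The lowest saline pool was several times the highest treated pool, and the log2 change was -2.59 (SE 0.15, adjusted p = 2.2e-11), a 6.03-fold fall at the 1.18th percentile of all genes. Saline CD4+ pools had 17.8, 12.5 and 13.4 CPM and the treated pools 4.48, 4.17 and 4.33 CPM, with a change of -1.72 (SE 0.18, adjusted p = 1.9e-08, 3.3-fold). The treated CD4+ pools lay closer to each other than the saline pools did.

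Nr4a3 fell in both lineages as well. Its saline CD4+ pools had 13.4, 11.7 and 14.7 CPM and those at 50 mg/kg 3.79, 3.84 and 4.63 CPM (log2 change -1.68, SE 0.17, adjusted p = 2.4e-08). For CD8+ T cells, 11.1, 12.3 and 9.37 CPM became 1.80, 2.52 and 2.55 CPM (log2 change -2.23, SE 0.27, adjusted p = 6.6e-07). Neither lineage had overlapping groups, and the calls of Nr4a2 and Nr4a3 held under all 20 alternatives in both lineages. Within the Nr4a family, therefore, Nr4a1 moved in the opposite direction to Nr4a2 and Nr4a3 under every scaling run.

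**Figure D1:**
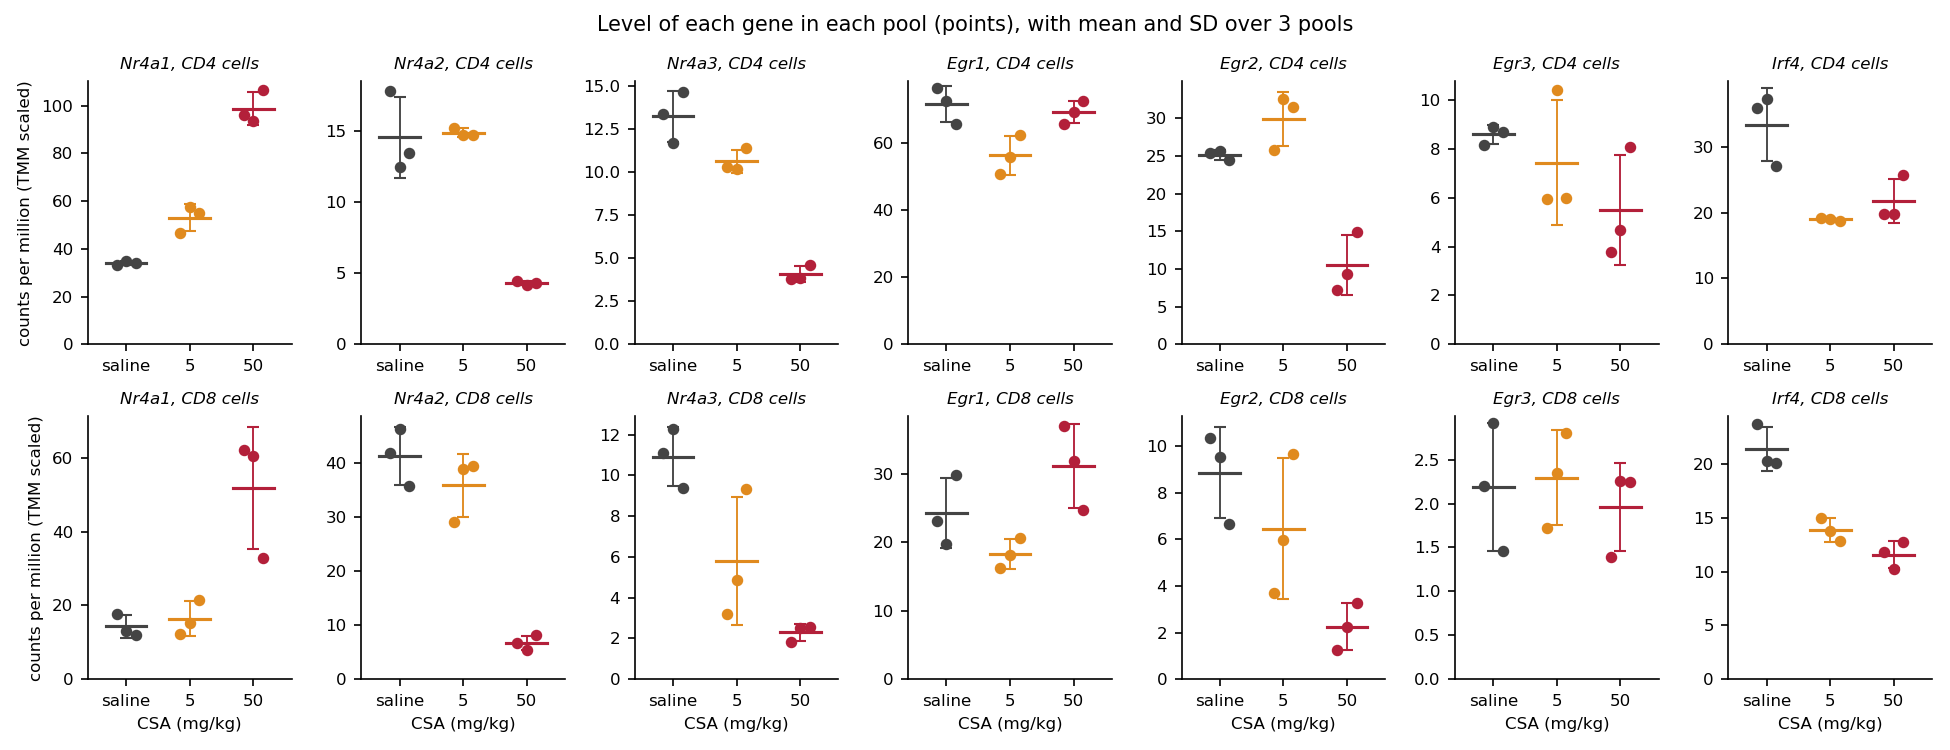
Level of each of the 7 genes (TMM-scaled CPM of UMIs summed per pool, linear axis from 0) in saline, CSA 5 mg/kg and CSA 50 mg/kg, in CD4+ and CD8+ T cells. Points are pools of 2 mice, and bars are the mean and SD of 3 pools. Nr4a1 stands highest at 50 mg/kg, whereas Nr4a2, Nr4a3 and Egr2 stand lowest there.

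The 3 Egr genes did not move together. Egr2 had 25.3, 25.7 and 24.4 CPM in the saline CD4+ pools and 7.23, 9.35 and 14.9 CPM at 50 mg/kg, with no overlap (log2 change -1.23, SE 0.16, adjusted p = 9.5e-07, 2.35-fold). The CD8+ pools of Egr2 had 10.4, 9.55 and 6.67 CPM with saline and 1.25, 2.26 and 3.27 CPM at 50 mg/kg (log2 change -1.90, SE 0.31, adjusted p = 2.1e-05, 3.74-fold). In both lineages the spread among the treated pools was wide for their level, and the groups still did not overlap. The Egr2 call held under all 20 alternatives in both lineages.

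Egr1 differed from Egr2 in size and direction. Its CD4+ saline pools had 76.7, 72.7 and 65.9 CPM and those at 50 mg/kg 66.0, 69.4 and 72.7 CPM. The groups overlapped, and the change of -0.04 (SE 0.07, adjusted p = 0.625) did not pass. Scaling by library size alone gave -0.48 (adjusted p = 4.6e-06). The CD8+ saline pools had 23.2, 19.8 and 29.9 CPM and the treated pools 37.0, 31.9 and 24.7 CPM, which overlapped. The CD8+ change of 0.35 (SE 0.15, adjusted p = 0.0396) passed, but the call was lost under 6 of 20 alternatives, among them leaving out saline replicate 1 or 2 or CSA 50 mg/kg replicate 1 or 2 (0.21 to 0.33), and the direction turned under library size scaling (-0.18) and outside the cycling clusters (-0.0051).

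Egr3 had 8.17, 8.90 and 8.70 CPM in saline CD4+ pools and 3.79, 4.67 and 8.06 CPM at 50 mg/kg. The highest treated pool came close to the saline pools, and the change of -0.62 (SE 0.25, adjusted p = 0.029) passed but was lost under 9 of 20 alternatives. These included leaving out saline replicate 2 or 3 or CSA 50 mg/kg replicate 1 or 2, with changes of -0.61 to -0.42 and adjusted p of 0.066 to 0.135. The CD8+ pools of Egr3 had 1.46 to 2.92 CPM in saline and 1.39 to 2.26 CPM at 50 mg/kg, and the change of -0.14 (SE 0.31, adjusted p = 0.688) did not pass.

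Irf4 fell by a smaller factor and did so at both doses. Its CD4+ saline pools had 35.8, 37.2 and 27.0 CPM, those at 5 mg/kg 19.1, 19.0 and 18.8 CPM, and those at 50 mg/kg 19.8, 19.9 and 25.7 CPM. Every treated pool was below every saline pool, and the changes were -0.81 (SE 0.13, adjusted p = 2.9e-05) at 5 mg/kg and -0.60 (SE 0.12, adjusted p = 0.00016) at 50 mg/kg. Among CD8+ pools, 23.8, 20.3 and 20.1 CPM with saline became 15, 13.8 and 12.9 CPM at 5 mg/kg and 11.8, 10.2 and 12.8 CPM at 50 mg/kg. Again no treated pool reached a saline pool, with changes of -0.64 (SE 0.11, adjusted p = 0.00011) and -0.87 (SE 0.11, adjusted p = 1.1e-06). All 4 Irf4 calls held under all 20 alternatives. The step from 5 to 50 mg/kg did not pass in CD4+ (0.21, adjusted p = 0.251) or CD8+ T cells (-0.23, adjusted p = 0.161).

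At the lower dose fewer members passed. The comparisons of both doses with saline use the same saline pools. Scaling by library size alone moved the median change of all genes at 5 mg/kg to -0.37 in CD4+ and -0.43 in CD8+ T cells (926 genes higher and 5718 lower against 2758 and 2709 with TMM, and 1180 and 6270 against 3241 and 3282). Of the 7 members, 3 passed in CD4+ T cells at 5 mg/kg (51.7% of all genes, 26.1% higher and 25.6% lower; pools apart for 5 of 7 and 57.7% of genes), namely Irf4 (above), Nr4a1 and Egr1. Nr4a1 had 46.7, 57.4 and 55.0 CPM, above all saline pools (log2 change 0.64, SE 0.09, adjusted p = 2.7e-06). The Nr4a1 call was lost when cluster C7, described below, was left out (0.15, adjusted p = 0.436). Egr1 had 50.9, 56.0 and 62.5 CPM, below all saline pools (-0.33, SE 0.08, adjusted p = 0.0016), a call lost when cells were thinned to 2000 UMIs (-0.24, adjusted p = 0.0658). The pools of Egr2 (25.8 to 32.5 CPM, higher) and Nr4a3 (10.2 to 11.4 CPM, lower) also lay apart from saline but did not pass (adjusted p = 0.131 and 0.101; Egr2 passed at 0.035 in a fit of these 2 groups alone and Nr4a3 at 0.0409 with thinned cells), and Nr4a2 (14.7 to 15.2 CPM) and Egr3 (-0.22, SE 0.25, adjusted p = 0.472) overlapped with saline.

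In CD8+ T cells 2 of 7 members passed at 5 mg/kg (60.2% of all genes, 30.3% lower; pools apart for 2 of 7 and 66% of genes), Irf4 and Nr4a3. Nr4a3 had 3.21, 4.89 and 9.30 CPM, with the highest pool just under the lowest saline pool (log2 change -0.79, SE 0.24, adjusted p = 0.0084). Without CSA 5 mg/kg replicate 3 the change was -1.40, and with thinned cells it was -0.72 (adjusted p = 0.0637). Nr4a2 had 29.1, 38.9 and 39.4 CPM, which overlapped with saline (-0.18, SE 0.12, adjusted p = 0.198). It passed under 1 of 20 alternatives, and the change ranged from -0.60 to -0.08 over them. Without TMM scaling its pools lay apart, at 44.5 to 57.6 CPM with saline and 26.9 to 36.7 CPM at 5 mg/kg. Nr4a1 had 12.3, 15.2 and 21.5 CPM, also overlapping (0.27, SE 0.26, adjusted p = 0.391). Egr1 had 16.3, 18.1 and 20.6 CPM, which overlapped with saline, and its change of -0.38 (SE 0.17, adjusted p = 0.057) did not pass, although it passed under 9 of 20 alternatives, among them DESeq2 (-0.39, adjusted p = 0.0448) and cells outside the cycling clusters (-0.67, adjusted p = 0.0033). Egr2 had 3.70, 5.97 and 9.69 CPM, of which replicate 3 overlapped with saline, and it did not pass (-0.34, SE 0.27, adjusted p = 0.278). It passed under 2 of 20 alternatives, and leaving out 1 pool at a time gave changes of -0.83 to -0.14. Egr3 (0.12, SE 0.32, adjusted p = 0.765) overlapped with saline and did not pass.

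Between the doses, 5 of 7 members passed in CD4+ (41.2% of all genes) and in CD8+ T cells (41%): Nr4a2, Nr4a3 and Egr2 lower and Nr4a1 and Egr1 higher at 50 than at 5 mg/kg. The pools did not overlap for 6 of 7 members in each lineage (50.2% of genes in CD4+ and 49% in CD8+ T cells). The Nr4a2 change from 5 to 50 mg/kg was -1.78 (SE 0.18, adjusted p = 9.2e-08) in CD4+ and -2.41 (SE 0.16, adjusted p = 1.7e-09) in CD8+ T cells. For Nr4a1 it was 0.89 (SE 0.07, adjusted p = 5.3e-09) and 1.58 (SE 0.22, adjusted p = 2.2e-05). The changes of Egr2 were -1.50 and -1.56, those of Nr4a3 -1.38 and -1.44, and those of Egr1 0.29 and 0.73. Egr3, with -0.40 (adjusted p = 0.246) and -0.26 (adjusted p = 0.563), did not pass between the doses. Thinning the cells ended the calls of Nr4a3 in both lineages, of Egr1 in CD4+ and of Egr2 in CD8+ T cells (adjusted p of 0.0504 to 0.179), the Egr1 call in CD4+ T cells also ended with TEa cells included or outside the cycling clusters, and without CSA 5 mg/kg replicate 3 the Nr4a3 change in CD8+ T cells was -0.83.

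**Figure D2:**
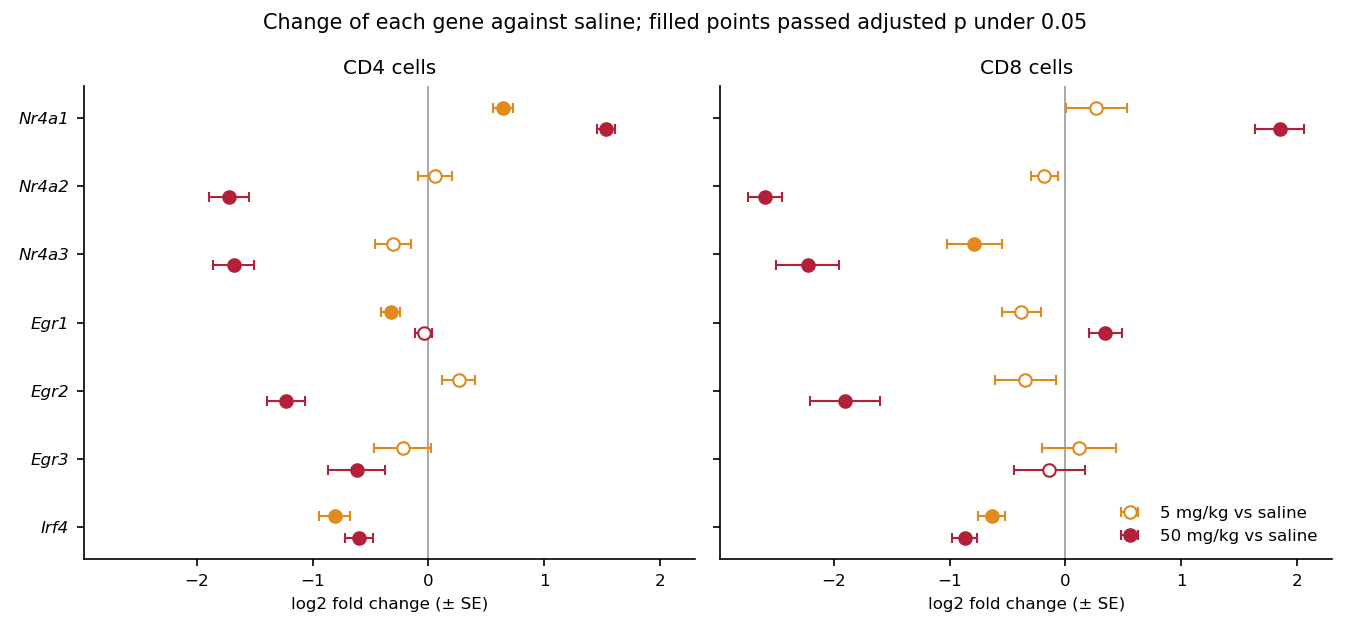
Log2 change of each gene against saline at 5 and 50 mg/kg in CD4+ and CD8+ T cells, with SE bars from edgeR's quasi-likelihood fit over 9 pools per lineage. Filled symbols mark an adjusted p under 0.05. Nr4a1 lies right of 0 at 50 mg/kg in both lineages, and Nr4a2, Nr4a3, Egr2 and Irf4 lie left of it.

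Whether the changes differed between the lineages was tested as an interaction, with the pool as a block because CD4+ and CD8+ T cells of a pool came from the same mice. At 50 mg/kg 1 of 7 members passed (19.3% of 11177 genes). Nr4a2 fell further in CD8+ than in CD4+ T cells, by -0.91 on the log2 scale (SE 0.25, adjusted p = 0.0103). That call was lost outside the cycling clusters (-1.07, adjusted p = 0.091) and without CSA 50 mg/kg replicate 2 (-0.80, adjusted p = 0.0613). The differences for Egr2 (-0.72, SE 0.28, adjusted p = 0.0738), Irf4 (-0.30, SE 0.14), Nr4a3 (-0.58, SE 0.33), Nr4a1 (0.27, SE 0.23), Egr1 (0.35, SE 0.15) and Egr3 (0.43, SE 0.37) did not pass. At 5 mg/kg no member passed in edgeR's interaction test (3.57% of genes), and Egr2 alone had an unadjusted p under 0.05 (log2 difference -0.65, SE 0.23, adjusted p = 0.13).

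The members' levels were then described across the study's clusters, 13 of CD4+ and 9 of CD8+ T cells. The clusters were made by the authors from the same counts, so no test was run between them, and levels here are CPM of the UMIs of a cluster in every pool that held 10 or more such cells, without TMM scaling. In saline pools the CD8+ cluster C8 (107 cells, 2.31% of CD8+ T cells) held the highest level of every member. Nr4a2 stood at 393 ± 201 CPM there (SD, n = 3 pools), and in the other clusters it ranged from 5.00 CPM in the naive cluster C7 to 56.7 ± 13.3 CPM in C4. Nr4a3 stood at 293 ± 113, Egr1 at 272 ± 94.2, Egr2 at 258 ± 83.3 and Nr4a1 at 230 ± 136 CPM in C8. C8 yielded 54.5% of all Egr2 UMIs, 49.5% of Nr4a3, 47.5% of Egr3, 30.6% of Nr4a1 and 20.3% of Egr1 UMIs of saline CD8+ T cells, but 17.9% of Nr4a2 and 6.78% of Irf4 UMIs.

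The study names C8 exhausted T cells. Of the markers fixed for that name, Ccl3 and Ccl4 were highest in C8, but Pdcd1 (229 CPM in C8, 494 CPM in C4) and Havcr2 were highest in C4 and Lag3 and Tox in C5, so the cluster is called C8 here. Ifng (842 CPM) and Tnfrsf9 (402 CPM), genes of recently activated cells, were also highest in C8. The second place in saline CD8+ T cells was held by the Tcf7hi cluster C5 for Egr1 (84.2 ± 14.4 CPM), Egr2 (21.3 ± 5.14 CPM), Egr3 (7.72 ± 4.64 CPM) and Irf4 (36.3 ± 1.30 CPM). For Nr4a2 the ranges of mean ± SD of C4 (56.7 ± 13.3), C5 (49.4 ± 18.1), C0 (42.3 ± 15.1) and C2 (41.7 ± 3.93 CPM) overlapped. In the naive cluster C7, Egr2, Egr3, Nr4a3 and Irf4 had no UMI in 115 cells.

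In CD4+ T cells, C7, which the study names cytotoxic and which was highest for Ifng, Ccl3 and Ccl4, had the highest saline levels of Egr2 (158 ± 70.2 CPM), Nr4a3 (93.2 ± 42.3 CPM) and Nr4a2 (72.1 ± 57.9 CPM). It held 4.36% of the cells and 30.4% of the Egr2, 34.3% of the Nr4a3 and 23% of the Nr4a2 UMIs. Egr1 was highest in the Tcf7hi precursor-like cluster C2 (212 ± 65.8 CPM), followed by C7 (163 ± 66.7) and the follicular helper cluster C4 (152 ± 31.2 CPM), 3 values within their spread. Egr3 was similar in C2 (29.5 ± 3.48) and C7 (26.9 ± 3.72 CPM). Nr4a1 had 103 ± 49.2 CPM in C7 and 100.2 ± 19.3 CPM in C2, against 9.52 to 35.1 CPM in the other clusters with more than 1 saline pool. Irf4, among the clusters with more than 1 saline pool, was highest in C7 (110.5 ± 55.1 CPM), then the Isg15hi cluster C10 (66.8 ± 39.5), C2 (62.6 ± 26.2) and C4 (55.3 ± 5.08 CPM). These ranges of mean ± SD overlapped. The regulatory cluster C11 had 10 cells in its only counted saline pool, where 10 Nr4a1 and 8 Irf4 UMIs came to 282 and 226 CPM.

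**Figure D3:**
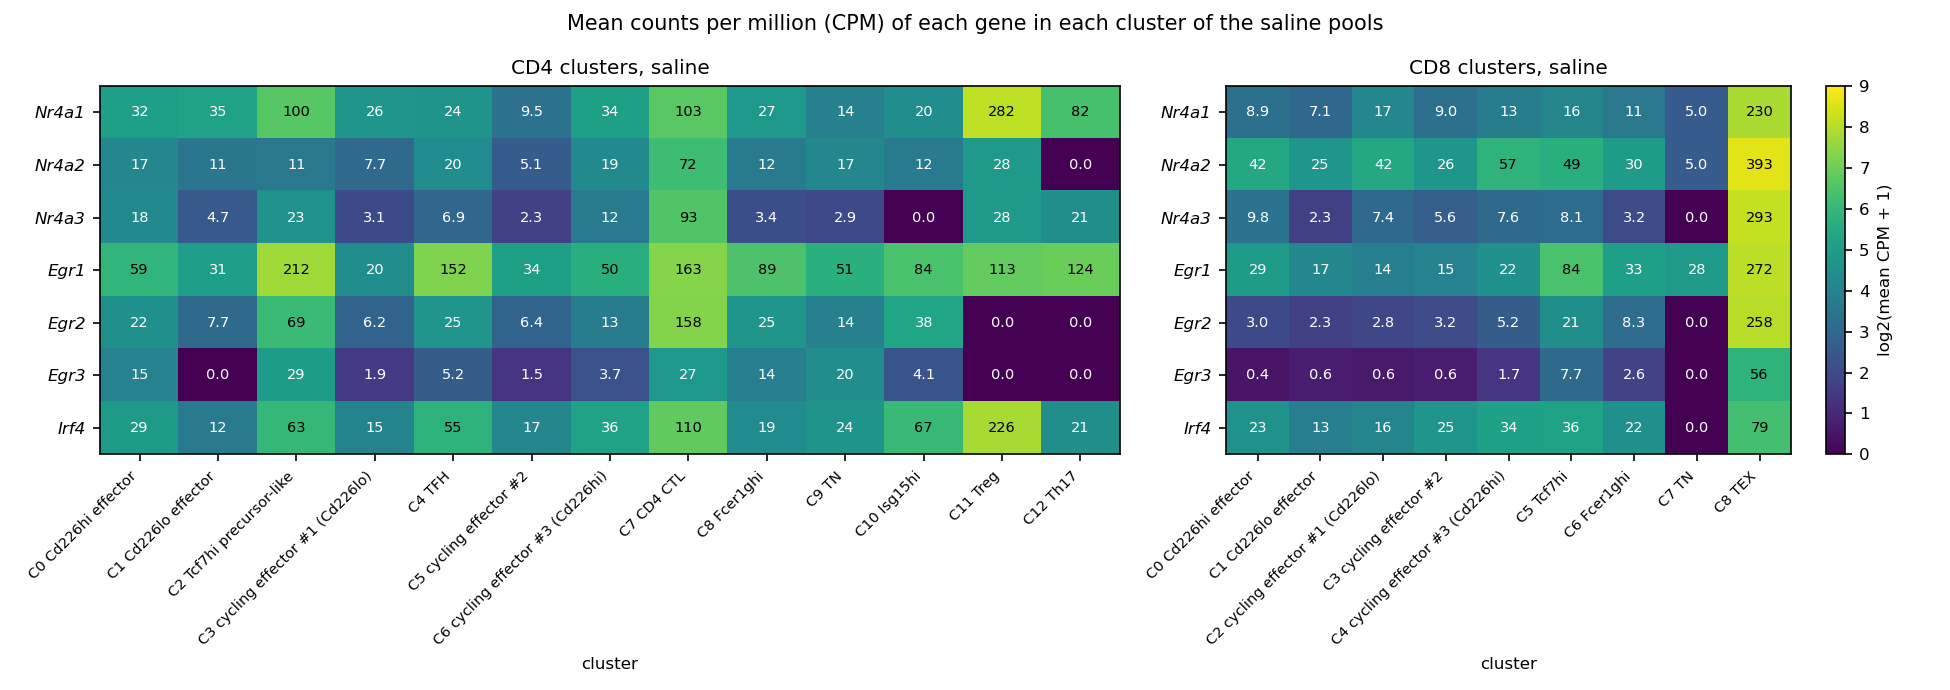
Mean level (CPM, colour scale) of each gene in each cluster of saline CD4+ and CD8+ T cells, over the pools with 10 or more such cells. CD8+ C8 is the highest column for every gene, and CD4+ C7 and C2 stand out among CD4+ clusters. C11 and C12 of CD4+ T cells rest on 1 saline pool each.

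The clusters changed in size with CSA. In CD8+ T cells C4 went from 21.9 ± 1.36% of cells in saline to 0.567 ± 0.048% at 50 mg/kg and C8 from 2.33 ± 0.559% to 3.54 ± 0.623%, and in CD4+ T cells C4 went from 18.1 ± 0.71% to 1.47 ± 0.367% and C7 from 4.41 ± 0.954% to 4.83 ± 0.78%. The changes were therefore also tested within each cluster that had at least 10 cells in at least 2 pools of every group, a member being tested where it passed the low count filter in that cluster. Such a filter keeps a low gene only where some group is high enough, so the counts are a description. Of all genes tested at 50 mg/kg, 54.8% passed in CD4+ C0, 20.3% in C1, 22.5% in C2, 17.7% in C3, 18.6% in C4, 53.9% in C5, 2.88% in C6, 36.6% in C7 and 34.1% in C8, and at 5 mg/kg 16.2%, 4.09%, 5.32%, 6.01%, 7.74%, 30.3%, 11.8%, 24.7% and 7.9%. No member could be tested in CD4+ C9 and C10 (26.7% and 36.2% of genes at 50 mg/kg, 16.4% and 19.4% at 5 mg/kg) or in the naive CD8+ C7 (3.52% and 1.1%). The shares at 50 mg/kg in CD8+ T cells were 58.4% in C0, 26.9% in C1, 54.8% in C2, 58.9% in C3, 34.7% in C5, 38% in C6 and 39.5% in C8, and at 5 mg/kg 16.5%, 5.48%, 37.5%, 36.1%, 36.6%, 13.3% and 17.5%. For Nr4a2, 7 CD8+ clusters were tested and it fell in all 7, by -2.02 to -3.89 on the log2 scale. Of 2 CD4+ clusters tested, Nr4a2 fell in C7 (-1.41, SE 0.50, adjusted p = 0.0305) and did not pass in C3 (-0.92, SE 0.60, adjusted p = 0.328). In C8 the saline pools had 556, 454 and 169 CPM of Nr4a2 and the pools at 50 mg/kg 66.4, 12.9 and 82.2 CPM, without overlap (-2.50, SE 0.35, adjusted p = 3.5e-06).

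Nr4a1 rose at 50 mg/kg in 6 of 6 CD8+ clusters tested and in 5 of 7 CD4+ clusters. In CD4+ T cells it rose most in the Cd226hi effector cluster C0 (2.70, SE 0.22, adjusted p = 3.8e-15), and in C1, the Cd226lo effector cluster, it had a change of 0.02 (SE 0.27, adjusted p = 0.976). In CD8+ C0 and C1 the rises were 2.34 (SE 0.30) and 2.6 (SE 0.48), and the smallest was in C8 (0.74, SE 0.24, adjusted p = 0.0177), where pools of both groups overlapped at 147 to 387 CPM with saline and 228 to 332 CPM at 50 mg/kg. In CD4+ C7 at 5 mg/kg, Nr4a1 had 314, 263 and 155 CPM against 83.8, 65.5 and 158 CPM with saline with 1 pool of each group at the same level (1.59, SE 0.26, adjusted p = 7e-05). This was the only 1 of 7 CD4+ clusters in which Nr4a1 passed at 5 mg/kg, and it held 40.2% of the Nr4a1 UMIs of that group from 5.56% of its cells, against 14.4% of them in saline.

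Egr2 and Nr4a3 fell within the clusters where they were highest, and Nr4a3 also fell in the other clusters where it was tested. In CD8+ C8, Egr2 went from 316, 295 and 162 CPM with saline to 11.6, 15.5 and 36.5 CPM at 50 mg/kg (-3.20, SE 0.33, adjusted p = 2e-08). Nr4a3 went from 289, 407 and 182 to 17.3, 25.8 and 42.6 CPM there (-2.94, SE 0.32, adjusted p = 3.9e-08). Both sets of pools lay far apart. Nr4a3 fell as well in CD4+ C7 (-1.99, SE 0.37, adjusted p = 0.00015), CD4+ C0 (-2.04, SE 0.50, adjusted p = 0.00056) and CD8+ C2 (-2.13, SE 0.43, adjusted p = 0.00022). In CD4+ C7 the Egr2 pools went from 132, 105 and 238 CPM to 14.0, 8.6 and 17.8 CPM (-3.11, SE 0.36, adjusted p = 2.2e-07). In the other cluster with high Egr2, CD4+ C2, the saline pools had 49.3, 109 and 48.7 CPM and those at 50 mg/kg 26.2, 54.9 and 64.7 CPM, which overlapped (-0.32, SE 0.25, adjusted p = 0.394). C7 was the only 1 of 4 CD4+ clusters tested in which Egr2 passed, and the difference between clusters was not tested. At 5 mg/kg, Egr2 (-0.93), Nr4a3 (-0.95) and Egr1 (-1.11) had also fallen in CD8+ C8, where 2 pools of that dose were counted. Nr4a3 had fallen in CD8+ C2 at that dose too (-1.05, SE 0.39, adjusted p = 0.0358).

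Egr1 moved in both directions between clusters. It rose at 50 mg/kg in CD4+ C0 (0.90), C3 (1.60) and C6 (2.45, with 34 cells in all and 2 counted pools at that dose). In CD8+ T cells it rose in C0 (0.87), C1 (1.18) and C2 (0.90). It fell in CD4+ C7 (-1.03) and in CD8+ C5 (-1.17) and C8 (-0.98), of 9 CD4+ and 7 CD8+ clusters tested. In CD8+ C8 the Egr1 pools went from 305, 165 and 344 CPM to 98.2, 95.5 and 116 CPM, without overlap. Irf4 fell in 1 of 4 CD4+ clusters (C7, -1.0) and 3 of 5 CD8+ clusters (C0, -1.57; C3, -0.69; C8, -1.05) at 50 mg/kg, and at 5 mg/kg in CD4+ C2 (-1.06) and C7 (-1.90) and CD8+ C3 (-0.84) and C5 (-1.24). Egr3 passed in none of 3 CD4+ clusters and not in the 1 CD8+ cluster tested at 50 mg/kg, with no unadjusted p under 0.05, and it fell in C2 of CD4+ T cells at 5 mg/kg (-1.82, SE 0.35, adjusted p = 0.00031). In that cluster its saline pools had 29.1, 26.2 and 33.1 CPM and those at 5 mg/kg 6.7, 9.3 and 6.8 CPM.

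**Figure D4:**
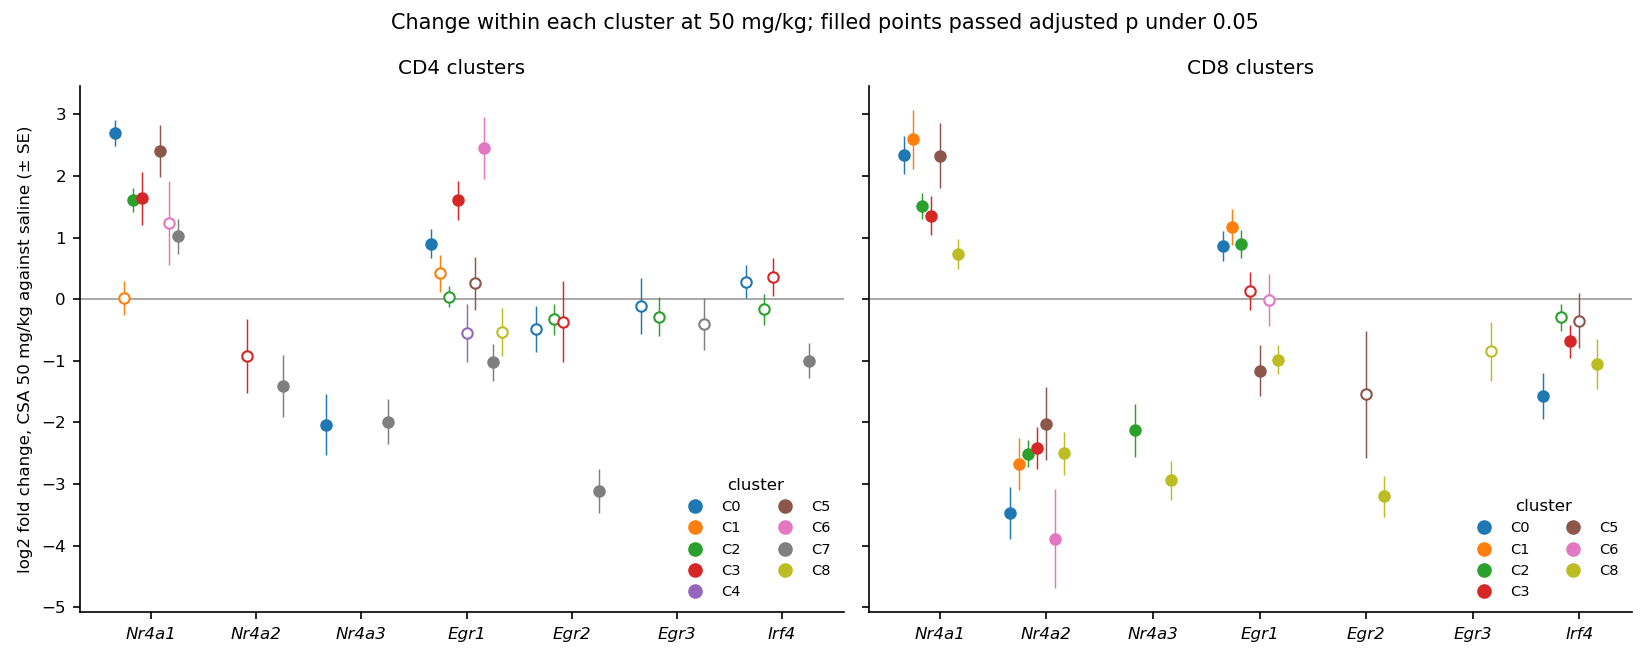
Log2 change at 50 mg/kg against saline within each cluster in which a gene was tested, with SE bars from edgeR's quasi-likelihood fit, for CD4+ and CD8+ T cells. Nr4a1 lies above 0 in the clusters tested, Nr4a2 and Nr4a3 lie below it, and Egr1 lies on both sides.

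The sums were compared with the share of cells in which each gene was seen. Since depth per cell differed between groups, each cell was thinned to 2000 UMIs, which left out 395, 452 and 80 CD4+ and 121, 83 and 8 CD8+ T cells in saline, 5 and 50 mg/kg. After thinning, Nr4a1 was seen in 5.48 ± 0.554% of saline CD4+ T cells (SD, n = 3), 4.92 ± 0.231% at 5 mg/kg and 10.7 ± 0.578% at 50 mg/kg (unthinned, 8.15%, 8.06% and 20.1%). The share at 5 mg/kg was thus not above saline although the summed level was. Nr4a2 was seen in 7.74 ± 1.01%, 4.43 ± 0.638% and 1.05 ± 0.312% of CD8+ T cells (unthinned, 15.3%, 13.2% and 3.42%). In naive CD8+ C7 cells of saline pools, thinned alike, Nr4a2 was seen in 2 of 110 cells (1.82%, exact binomial 95% interval 0.221% to 6.41%) and Egr2, Egr3, Nr4a3 and Irf4 in none, which allows up to 3.30%. With so few naive cells these limits are wide. They come from the saline capture, so for the shares at 5 and 50 mg/kg they are limits of another capture. The shares of Egr2 over all CD8+ T cells (1.77% with saline, 0.449 ± 0.092% at 50 mg/kg) lie within them in both groups. So do those of Nr4a3 (1.90% and 0.457 ± 0.074%) and those of Nr4a2 at 5 and 50 mg/kg. Expression and free RNA cannot be told apart from these shares over all CD8+ T cells. The saline share of Irf4 (4.62%) lay above its limit. In saline C8 alone, thinned alike, Egr2 and Nr4a3 were each seen in 33 of 107 cells, also above it.

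At the thinned depth, 23.3 ± 2.42% of saline CD4+ T cells held at least 1 of the 7 genes and 6.27 ± 0.545% at least 2, and in CD8+ T cells the shares were 18.5 ± 0.867% and 3.26 ± 0.38%. At 50 mg/kg the share with at least 1 was 19.1 ± 0.54% in CD4+ and 12.2 ± 1.57% in CD8+ T cells. Some pairs of members were seen in the same cells more often than expected if the 2 genes were independent, and others were not. In saline CD4+ C2, 35 of the 44 cells with Egr2 also held Egr1 (9.09 expected), which was seen in 87 of all 421 cells. Of the 39 cells with Nr4a1 there, 26 held Egr1 (8.06 expected). In saline CD8+ C8, 19 of the 33 cells with Nr4a3 and 21 of the 33 with Egr2 held Nr4a2 (13.9 expected for each), which was seen in 45 of 107 cells. Egr2 and Nr4a1 were seen together there in 9 cells (8.64 expected) and Nr4a1 and Irf4 in 3 (3.14 expected). In saline CD4+ C7, Egr2 and Irf4 were seen together in 5 cells (6.25 expected). Cells of 1 sample share their source and depth, and these counts are a description.

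Clone size and antigen specificity were compared within pools, with the pool as a block. In CD4+ T cells, 3 of 7 members passed between cells of clonotypes with at least 2 cells in their pool and single cells (17.4% of 9924 genes). Nr4a2 was higher in expanded clonotypes in 7 of 9 pools (17.1 ± 10.9 against 9.36 ± 4.5 CPM, log2 difference 0.80, SE 0.18, adjusted p = 0.0019), with 19.8 to 27.7 CPM in expanded and 9.33 to 13.2 CPM in single saline cells. The pools at 50 mg/kg had 4.09, 4.92 and 4.28 CPM in expanded and 4.34, 3.65 and 4.37 CPM in single cells, with no clear difference. Egr1 was lower in 7 and Nr4a1 in 6 of 9 pools (-0.34, SE 0.09, adjusted p = 0.0098, and -0.37, SE 0.11, adjusted p = 0.0153). All 3 calls were lost when expanded meant at least 3 cells (adjusted p of 0.0567 to 0.127), those of Egr1 and Nr4a1 also outside the cycling clusters and that of Egr1 with thinned cells (adjusted p = 0.106), and the Nr4a1 call was lost without any 1 of the CSA 50 mg/kg pools (-0.31 to -0.28), the Egr1 call without replicate 1 of them (-0.25, adjusted p = 0.0515).

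Between CD8+ clonotypes, 2 of 7 members passed for expanded against single cells (13.7% of 10075 genes). Nr4a2 was higher in expanded clonotypes in 8 of 9 pools (33.2 ± 19.7 against 25.9 ± 15.6 CPM, 0.37, SE 0.08, adjusted p = 0.003), and Irf4 in 7 of 9 (17.9 ± 7.14 against 14.5 ± 3.74 CPM, 0.36, SE 0.11, adjusted p = 0.0281). Neither call held outside the cycling clusters (0.40, adjusted p = 0.248, and 0.61, adjusted p = 0.133), that of Nr4a2 was lost with thinned cells, and that of Irf4 when expanded meant at least 3 cells (0.34, adjusted p = 0.113; Egr2, at -0.44 and adjusted p = 0.13 otherwise, then passed with -1.54, adjusted p = 0.00055) and without any 1 saline pool or CSA 5 mg/kg replicate 2 (0.25 to 0.35). TEa cells were compared with other CD4+ T cells in the 7 pools with at least 10 of them, and 1 of 7 members passed (2.66% of 10059 genes). Egr1 was higher in TEa cells in 5 of 7 pools (114 ± 71.5 against 68.1 ± 10.4 CPM, 0.77, SE 0.15, adjusted p = 8.5e-05). The pool CSA 5 mg/kg replicate 1 had 239 CPM in TEa cells, and without it the difference was 0.41 (adjusted p = 0.268). The other members differed by -0.90 (Nr4a3) to 0.23 (Egr2), with adjusted p of 0.489 to 0.998.

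Other genes with a like pattern were ranked by Pearson's r of log2(mean CPM + 1) over the cluster and treatment means, 34 in CD4+ and 26 in CD8+ T cells, among 6168 and 5918 genes with at least 20 CPM over these means. The points share captures and depth, and r is a description. In CD8+ T cells, Nr4a2 was most like Tnfrsf9 (0.94), Rgs16 (0.92) and Rgs1 (0.90), Nr4a3 most like Ddx21 (0.93), Egr2 most like Tnf (0.89) and Nr4a1 most like Nab2 (0.86). In CD4+ T cells the first places went to Xcl1 for Nr4a2 (0.85), Zfp36l1 for Egr1 (0.84), Nfatc1 for Irf4 (0.81), Tnfsf8 for Egr2 (0.80), Dusp2 for Nr4a1 (0.76), Irf4 for Egr3 (0.76) and Nfkbid for Nr4a3 (0.73). Among the members, Egr2 and Egr3 (0.90), Egr2 and Nr4a3 (0.88) and Nr4a2 and Nr4a3 (0.84) were most alike in CD8+ T cells, although Egr3 averaged only 2.18 CPM there, under the floor of 5 CPM set for ranking a member. Nr4a1 and Nr4a2 were least alike in both lineages, with 0.24 in CD8+ and 0.13 in CD4+ T cells.

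The other genes of these pathways were counted in the same fits, beside which 34.7% of all genes rose and 35.8% fell in CD4+ and 37.1% and 36.9% in CD8+ T cells at 50 mg/kg (26.1% and 25.6%, and 29.9% and 30.3%, at 5 mg/kg). Several counts below lie near these shares and are a description only. Of the NFAT-dependent activation genes, 14 of 20 fell and none rose in CD4+ T cells at 50 mg/kg (median log2 change -0.84, against -0.01 for all genes), and 17 of 19 fell and 2 rose in CD8+ T cells (median -1.57, against 0.00097). Tox, which encodes a factor of the exhaustion program, went from 164 to 9.48 CPM in CD8+ T cells (-4.07, SE 0.10), and Il21, a helper cytokine gene, from 49.9 to 2.47 CPM in CD4+ T cells (-4.30, SE 0.18). At 5 mg/kg, 7 rose and 4 fell of 20 in CD4+, and 5 rose and 6 fell of 19 in CD8+ T cells. Of the calcineurin and NFAT genes, 3 rose and 8 fell of 13 in each lineage at 50 mg/kg. The NFAT genes Nfat5, Nfatc2 and Nfatc1 fell by 1.5, 1.21 and 1.06 on the log2 scale in CD4+ T cells, and Ppia, which encodes cyclophilin A, rose (0.87 in CD4+ and 0.93 in CD8+ T cells).

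Of the immediate-early genes outside the Egr and Nr4a families, 7 rose and 5 fell of 19 in CD4+, and 12 rose and 5 fell of 20 in CD8+ T cells at 50 mg/kg (of all genes, 34.7% rose and 35.8% fell in CD4+ and 37.1% and 36.9% in CD8+ T cells). Fosb, an AP-1 subunit gene, fell in both (-1.78 and -1.78), as did Tnfaip3, an inhibitor of NF-κB signaling (-1.40 and -1.31), while the AP-1 gene Jund rose (1.10 in CD8+ T cells). Of the ERK feedback genes, 4 rose and 4 fell of 9 in CD4+ and 2 rose and 5 fell of 10 in CD8+ T cells. Dusp2, which encodes an ERK phosphatase, rose (1.15 and 1.60) and Spry1, an inhibitor of the cascade, fell (5.51 to 1.06 CPM in CD4+ T cells). Of the genes linked to Egr2, Egr3 and anergy, 8 fell and 1 rose of 12 in CD4+ and 9 fell and 2 rose of 12 in CD8+ T cells. These included Nrgn (-4.17 and -2.94), Izumo1r (-2.88 and -3.43) and Rnf128, which encodes the ubiquitin ligase GRAIL (4.95 to 0.955 CPM in CD4+ T cells).

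Relatives and partners of the members had 4 higher and 5 lower of 14 in CD4+ (near the 34.7% and 35.8% of all genes) and 4 higher and 7 lower of 14 in CD8+ T cells (37.1% and 36.9%) at 50 mg/kg. Nab2, a corepressor that binds Egr proteins, rose (0.72 and 0.67), Batf, a partner of Irf4, fell in CD4+ T cells (-0.70), and Ikzf3 (-1.77 and -0.95) and Prdm1 (-0.70 and -1.28), which encode the repressors Aiolos and Blimp-1, fell. Of the markers of other cells at 50 mg/kg, 4 of 4 erythroid markers tested rose in both lineages, 4 of 5 B cell markers rose and 1 fell in CD4+ (3 and 1 of 5 in CD8+) and 3 of 8 myeloid markers rose and 1 fell in CD4+ (5 and 1 of 8 in CD8+). The 1 NK cell marker tested fell in both lineages, T cell markers had 6 higher and 2 lower of 9 in CD4+ and 9 higher of 9 in CD8+ T cells, and dissociation and heat shock genes had 4 higher and 3 lower of 9 in CD4+ and 4 and 4 of 9 in CD8+ T cells. Scaling by library size alone lowered the medians of all these lists, and the immediate-early genes then had 2 higher and 12 lower of 19 in CD4+ and 6 higher and 8 lower of 20 in CD8+ T cells at 50 mg/kg. No NFAT-dependent gene that passed changed direction at 50 mg/kg under that scaling, and neither did any of the genes named with a rise or fall here, whereas calls such as those of Myc (both lineages), Dusp6 (CD4+) and Dusp5 (CD8+), named for that reason, did.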

How the data were processed

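Donor T cells were profiled by droplet single-cell RNA-seq with 5′ chemistry, TCR sequencing and hashtag antibodies. The authors processed reads with Cell Ranger and Seurat 3.0.0 on mm10, per the labels and the study's methods, and the deposited tables hold raw UMI counts per cell and gene, hashtag UMI counts, clonotypes, TEa status, cluster numbers and, as a deposited fraction from 0 to 1, mitochondrial UMIs. The authors' filtered cells were used as deposited and no doublet caller was run. CD8+ cluster numbers were matched to the study's cluster names by markers, and no value column was left unused.

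Counts were summed per pool and lineage without TEa cells, filtered (filterByExpr), TMM scaled and tested with edgeR 4.0.16 (R 4.3.3) quasi-likelihood fits over the 9 pools of a lineage, with Benjamini-Hochberg adjustment over all genes and a threshold of 0.05. Interaction, clonotype and TEa fits held the pool as a block. Within clusters, pools needed 10 cells. On counts simulated for CD4+ 50 mg/kg against saline over 10568 genes, 89% of 100 genes changed 2-fold, 99% of 100 genes changed 4-fold and 0.135% of unchanged genes were called. For CD8+ (10841 genes) the shares were 91%, 98% and 0.122%. The simulation changed few genes, up and down alike, and held no capture effect. In the data most genes passed at 50 mg/kg, so these shares do not carry over to that setting. Alternatives were DESeq2 1.42.0, library size scaling, no filter, other sets of cells, thinning to 2000 UMIs, the pool number as a block and leaving out each pool. The use of cells by their highest hashtag and leaving out the cluster highest for Nr4a2 and Nr4a3 were added after the data had been seen.

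The members and the gene lists (NFAT-dependent, calcineurin and NFAT, immediate-early, ERK feedback, Egr2/Egr3 and anergy, family partners, dissociation and heat shock, and erythroid, B cell, myeloid, NK cell and T cell markers) were chosen with earlier results of these data known. Members were described in each comparison between groups, and of each list at most 4 genes with the largest change at 50 mg/kg among those that passed were named. Intervals on shares cover counting error only. Pools are mice combined by 2, so p-values reflect the spread between pools within 1 capture per treatment.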

Additional observations from a re-analysis of the deposited data

Results flagged for a closer look

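The fall of Nr4a2 at 50 mg/kg differed between the lineages in a test of the difference itself, with a CD8+ minus CD4+ log2 difference of -0.91 (SE 0.25, adjusted p = 0.0103 by edgeR's interaction term over 18 sums of 9 pools). Nr4a2 fell by 2.59 on the log2 scale in CD8+ T cells and by 1.72 in CD4+ T cells, and its saline level was 41.2 ± 5.28 CPM (SD, n = 3) in CD8+ and 14.6 ± 2.85 CPM in CD4+ T cells. The pools at 50 mg/kg were at 6.72 ± 1.31 CPM and 4.33 ± 0.153 CPM. Over 14 alternatives the difference ranged from -1.27 to -0.70, and the call was lost under 2 of them. Nr4a2 counts in the CD4+ pools at 50 mg/kg were low, at 26, 25 and 29 UMIs, and their part in the difference was not tested. Groups of 3 pools were too small for the check on single outlying samples.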

How the results depend on the processing

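In the comparison of 50 mg/kg with saline, the calls of Nr4a1, Nr4a2, Nr4a3, Egr2 and Irf4 held in both lineages under each of the 20 alternatives. The CD8+ Egr1 change at 50 mg/kg turned to -0.0051 outside the cycling clusters and -0.18 with library size scaling. Thinning to 2000 UMIs lowered the genes passing between 50 and 5 mg/kg to 2713 in CD4+ and 2673 in CD8+ T cells, with 3 members in each, and left 1 member in CD8+ at 5 mg/kg. Library size scaling gave 5 members at 5 mg/kg in each lineage, no filter gave 4 in CD8+, and outside the cycling clusters 2836 genes passed in CD8+ between the doses. The causes were not tested.

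For the interaction, at 5 mg/kg 219 genes passed with no replicate block, 76 outside the cycling clusters and 126 with thinned cells, against 399, and no filter gave 1 member. At 50 mg/kg the counts were 626 outside the cycling clusters and 848 with thinned cells, and no filter gave 3 members. Within clusters, passing pairs of member and cluster in CD4+ T cells were 3 with DESeq2 and 9 with library size scaling at 5 mg/kg (5 in the report's fits) and 9 with DESeq2 at 50 mg/kg (14), and in CD8+ at 5 mg/kg 2 with DESeq2 and 3 with at least 20 cells per pool (6). For CD4+ clonotypes, 0 members passed with at least 3 cells, 501 genes and 1 member outside the cycling clusters and 890 genes with thinned cells. For CD8+ clonotypes it was 195 genes and 0 members outside the cycling clusters and 687 genes and 1 member with thinned cells.

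Leaving out 1 pool at a time gave 1 to 4 members for CD4+ and 1 to 2 for CD8+ clonotypes, 2 to 4 for CD8+ at 5 mg/kg, 167 to 477 genes and 0 to 1 member for the interaction at 5 mg/kg, 0 to 3 members at 50 mg/kg, 0 to 1 for TEa cells, and 5 to 8 (CD4+) and 1 to 6 (CD8+) pairs within clusters at 5 mg/kg. The pool numbers did not pair the pools. Correlations of same-numbered pools' deviations ran from -0.078 to 0.048 in CD4+ and -0.033 to 0.063 in CD8+ T cells, and the replicate block left 3, 6 and 5 members in the CD4+ comparisons and 2 in CD8+ at 5 mg/kg (CD4+ Nr4a1 at 50 mg/kg, 1.54).

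Limits are the single capture per treatment, 3 pools per group, unequal depth per cell, and low UMI counts for Egr3. Counts were also low at 50 mg/kg for Egr2 and Nr4a3 in CD8+ T cells. In CD4+ T cells at that dose, Nr4a2 had 80 UMIs in all and Nr4a3 had 76.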
